A study of Mus musculus with 16 samples.

Results

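The plasma carrier genes described here are Alb, Afm, Gc, Ttr, Rbp4, Trf, Serpina6, Ahsg, Fetub and Ambp. They were selected by symbol, 10 of the 22322 genes in the deposited liver and fat tables, because the share of counts held by Alb was lower in treated livers. That choice used the liver comparison of halofuginone with vehicle, so the liver differences between the groups are given for these genes as descriptions, with no p-value, and calls among them are only counted beside those among all genes. The comparisons in fat, and between liver and fat of the vehicle groups, were not used in the choice and are tested.

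Plasma carrier proteins are made mainly by hepatocytes and are secreted into the blood, where they hold hydrophobic or reactive cargo in solution. Albumin, the most abundant of them, binds fatty acids, bilirubin and many drugs, and its relatives afamin (Afm) and vitamin D-binding protein (Gc) carry vitamin E and vitamin D. Transthyretin (Ttr) carries thyroxine and also holds retinol-binding protein (Rbp4) in the plasma, transferrin (Trf) carries iron, and corticosteroid-binding globulin (Serpina6) carries glucocorticoids. The fetuins (Ahsg and Fetub) bind mineral or inhibit proteases, and Ambp encodes a precursor that is cut into the heme-binding alpha-1-microglobulin and the protease inhibitor bikunin.

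All mice were diet-induced obese (labelled DIO), the vehicle groups carry the label HFD and the halofuginone groups the label H100. Halofuginone, an inhibitor of prolyl-tRNA synthetase, was injected into the peritoneum at 100 μg/kg every 2 days, vehicle was given on the same schedule, and tissue was taken after 8 weeks. There were 5 liver libraries from each treatment, and 3 from each of white adipose tissue, whose depot the labels do not name. The labels give no strain, sex or age and do not say that the libraries of a group came from separate animals, so the p-values measure the spread between these libraries.

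The liver libraries held between 20309956 and 31980683 counts, the fat libraries between 17070614 and 21387799. A gene is named as called where the quasi-likelihood test of edgeR gave an adjusted p (Benjamini-Hochberg) under 0.05, which was so for 2850 of the 12311 genes tested in liver. Halofuginone replicate 1 stood nearest to the vehicle livers for most of the carrier genes, and without it 5312 genes were called. Without halofuginone replicate 3 or 5, or without vehicle replicate 2, the number was 1275, 1403 and 1458. Levels are given as CPM, counts relative to library sizes that were corrected by trimmed means (TMM), unless FPKM is named.

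The carrier genes lie in part next to each other. On chromosome 5, Alb and Afm have only Afp, the fetal relative of albumin, between them among protein-coding genes, and Gc lies 4 protein-coding genes away from Alb. On chromosome 16, Ahsg and Fetub have 0 protein-coding genes between them. The RefSeq table of promoters (GRCm38.p6) matched 7 of the 10 members, not Ttr, Trf or Serpina6, with 9 windows. The 250 bases before the start are shown for these neighbours, because Alb and Afm, and likewise Ahsg and Fetub, had nearly parallel levels across the 10 livers while Gc did not, a contrast that rests on the treated livers. Each is written from 5′ to 3′ on the gene's strand, with any match to a searched motif in capitals.
Alb, chr5:90460620-90460869, plus strand: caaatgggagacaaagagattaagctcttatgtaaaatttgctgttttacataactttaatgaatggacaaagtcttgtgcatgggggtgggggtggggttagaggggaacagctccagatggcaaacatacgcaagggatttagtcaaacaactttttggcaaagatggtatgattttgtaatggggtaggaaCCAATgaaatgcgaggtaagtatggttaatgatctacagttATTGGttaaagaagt
Afm, chr5:90518699-90518948, plus strand: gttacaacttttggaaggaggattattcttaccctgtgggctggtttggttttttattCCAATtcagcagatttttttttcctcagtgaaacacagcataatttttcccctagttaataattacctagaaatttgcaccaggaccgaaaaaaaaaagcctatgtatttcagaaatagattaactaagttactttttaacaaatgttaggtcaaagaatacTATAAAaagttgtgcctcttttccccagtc
Gc, chr5:89457899-89458148, minus strand: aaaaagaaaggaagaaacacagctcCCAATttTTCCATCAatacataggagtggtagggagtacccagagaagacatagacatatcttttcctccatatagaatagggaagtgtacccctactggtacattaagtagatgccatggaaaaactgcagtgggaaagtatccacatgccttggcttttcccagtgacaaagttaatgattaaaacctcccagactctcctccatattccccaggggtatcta
Ahsg, chr16:22891765-22892014, plus strand: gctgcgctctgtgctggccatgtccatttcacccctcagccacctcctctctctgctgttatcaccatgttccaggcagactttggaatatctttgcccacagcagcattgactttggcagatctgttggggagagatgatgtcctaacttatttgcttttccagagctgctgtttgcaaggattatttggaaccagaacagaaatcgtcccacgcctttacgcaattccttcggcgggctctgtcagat
Fetub, chr16:22918132-22918381, plus strand, the first of its 2 windows: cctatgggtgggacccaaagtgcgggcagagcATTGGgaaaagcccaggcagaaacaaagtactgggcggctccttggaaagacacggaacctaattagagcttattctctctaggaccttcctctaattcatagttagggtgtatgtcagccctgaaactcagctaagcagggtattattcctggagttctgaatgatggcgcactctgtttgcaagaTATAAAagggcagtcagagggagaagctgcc

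The motifs, searched on both strands, were the TATA box TATAAA, the CCAAT box CCAAT, the motif TGATGNAA of ATF4 paired with a C/EBP protein, and the HNF4 motif CAAAGTCCA. Over the 32851 promoter windows of this length, 12.4% held a TATA box, 33.8% a CCAAT box, 3.45% the ATF4 motif and 0.384% the HNF4 motif. The Alb window held 2 matches to the CCAAT box. The Afm window held 1 CCAAT box and 1 TATA box. The Gc window held 1 match each to the CCAAT box and the ATF4 motif. In Fetub's first window there was 1 CCAAT box and 1 TATA box, and in the Ahsg window no searched motif was found. Of the windows not shown, those of Rbp4 held a CCAAT box and the ATF4 motif in the first and a TATA box in the second, that of Ambp held 1 CCAAT box, and Fetub's second held none. Of the 7 members with a window, all but Ahsg thus held a CCAAT box in at least 1 window. A match is a run of letters and was not tested as a binding site.

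Alb had the highest FPKM of the 10 genes in every liver library. In the vehicle livers, replicates 1 to 5, Alb stood at 94515, 85298, 98802, 97184 and 94970 CPM. In the halofuginone livers it stood at 80505, 32675, 26739, 62299 and 56687 CPM. All 5 treated values lay below the lowest vehicle value, with replicate 1 close to it and replicates 2 and 3 far below. The means were 94154 ± 5244 and 51781 ± 22090 CPM (SD, n = 5 each), and the fitted difference was −0.86 on the log2 scale (SE 0.33). The separation depended on the scaling, since on library size alone, as in FPKM, 4 of the 5 treated values lay below the vehicle range and replicate 1 lay inside it. In bulk tissue, fewer cells of a type and less RNA per cell cannot be told apart.

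As a share of all counts, Alb took 8.93 ± 0.67% in vehicle livers and 5.34 ± 1.99% in treated livers (SD, n = 5 each). The other 9 genes together took 3.65 ± 0.28% and 3.89 ± 0.56%. Alb made up 71.0 ± 0.58% of the counts of the 10 genes in vehicle livers, with a range of 70.6 to 72.0%. Under halofuginone it made up 70.3% in replicate 1, 48.3% and 48.5% in replicates 2 and 3, and 57.6% and 57.2% in replicates 4 and 5. The albumin part was therefore almost constant among vehicle livers, while 4 of the 5 treated livers had a far smaller albumin part and replicate 1 lay just below the vehicle range. The summed share of all 10 genes was 12.6 ± 0.94% in vehicle and 9.24 ± 2.16% in treated livers.

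**Figure D1:**
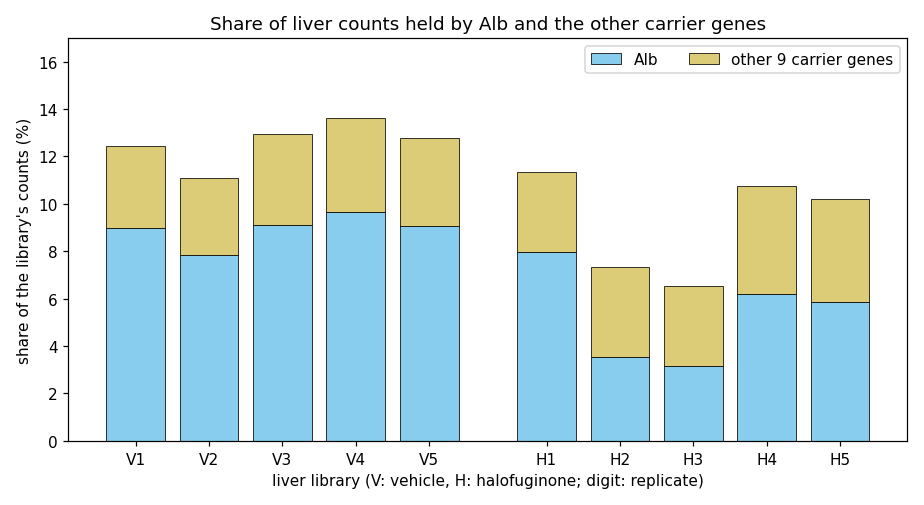
Stacked bars give the percent of each liver library's counts held by Alb (blue) and by the other 9 carrier genes (yellow), for vehicle (V) and halofuginone (H) replicates. The Alb part is 8.93% on average in vehicle and 5.34% in treated livers, while the other 9 genes hold 3.65% and 3.89%.

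The albumin relatives differed from each other. Afm, the vitamin E carrier, stood at 187, 185, 210, 191 and 216 CPM in the vehicle livers. It stood at 179, 84.1, 90.3, 159 and 128 CPM in the treated livers, all below the vehicle range, with the same order of libraries as Alb except that replicates 2 and 3 changed places. The log2 fold change was −0.63 (SE 0.20). On library size alone, 4 of the 5 treated Afm values lay below the vehicle range.

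Gc, the vitamin D carrier, stood at 5714, 5572, 5592, 5738 and 5878 CPM in vehicle livers. It stood at 5364, 6035, 5083, 5859 and 5581 CPM in treated livers. The groups overlapped, the means were 5699 ± 124 and 5584 ± 380 CPM, and the log2 fold change was −0.03 (SE 0.14). Its sign turned on the scaling, at 0.13 with library size alone. Gc had the smallest spread of the 10 genes in both groups, with coefficients of variation of 2.17% and 6.81%.

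The thyroxine and retinol carriers, which travel as a complex in plasma, also parted. Ttr stood at 3790, 3600, 3910, 4423 and 4160 CPM in vehicle livers. It stood at 3032, 867, 1110, 2197 and 1644 CPM in treated livers, all below the vehicle range on each of the 3 scales used. The log2 fold change of Ttr was −1.17 (SE 0.30), from a mean of 3977 ± 322 to 1770 ± 872 CPM.

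Rbp4 stood at 2041, 2133, 2086, 2129 and 2312 CPM in vehicle livers. In treated livers it stood at 2574, 669, 1659, 3261 and 2740 CPM, so that 3 libraries lay above and 2 below the vehicle range. The mean hardly differed, with a log2 fold change of 0.03 (SE 0.33) that turned to −0.06 without halofuginone replicate 1, while the coefficient of variation was 4.82% in vehicle and 47.0% in treated livers. Per length, the FPKM ratio of Rbp4 to Ttr was 0.685 ± 0.051 in vehicle livers, from 0.610 to 0.751. In treated livers the ratio was 0.979 to 2.11, above the vehicle range in 5 of 5 libraries. This ratio was chosen after the values were seen.

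Trf, the iron carrier, stood at 14502, 14777, 17925, 17512 and 15814 CPM in vehicle livers and at 13880, 13494, 8433, 13331 and 11881 CPM in treated livers. The TMM-scaled groups did not overlap, and the log2 fold change was −0.40 (SE 0.20). On library size alone 3, and in FPKM 2, of the 5 treated values lay below the vehicle range. Of the 5 carriers whose TMM-scaled groups did not overlap, Trf kept the fewest treated libraries outside the vehicle range on the other scales.

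Serpina6, the glucocorticoid carrier, stood at 198, 145, 105, 240 and 202 CPM in vehicle livers. In treated livers it stood at 205, 40.5, 90.4, 379 and 151 CPM. It was the most variable of the 10 genes in both groups, with coefficients of variation of 29.7% and 75.5%. The log2 fold change was −0.04 (SE 0.47), and its sign turned to 0.06 with library size alone.

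Both fetuins had higher mean levels in the treated livers. Fetub, a protease inhibitor known for its role in fertilisation, stood at 466, 478, 485, 398 and 493 CPM in vehicle livers. It stood at 520, 804, 784, 1158 and 1225 CPM in treated livers, above the vehicle range in 5 of 5 on each scale. The log2 fold change was 0.95 (SE 0.21).

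Ahsg, the inhibitor of ectopic calcification, stood at 7958, 6926, 9072, 7641 and 8141 CPM in vehicle livers. In treated livers it stood at 6363, 8722, 8585, 17083 and 17003 CPM. Replicates 4 and 5 lay far above the vehicle range, replicates 2 and 3 inside it and replicate 1 below it. The log2 fold change was 0.54 (SE 0.29), and on library size alone 4 of the 5 treated values lay above the vehicle range.

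Ambp stood at 1930, 1634, 1789, 1804 and 1818 CPM in vehicle livers and at 1852, 4279, 2562, 2431 and 2113 CPM in treated livers. Replicates 2 to 5 lay above the vehicle range, replicate 2 highest, and replicate 1 lay inside it. The log2 fold change was 0.56 (SE 0.22).

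**Figure D2:**
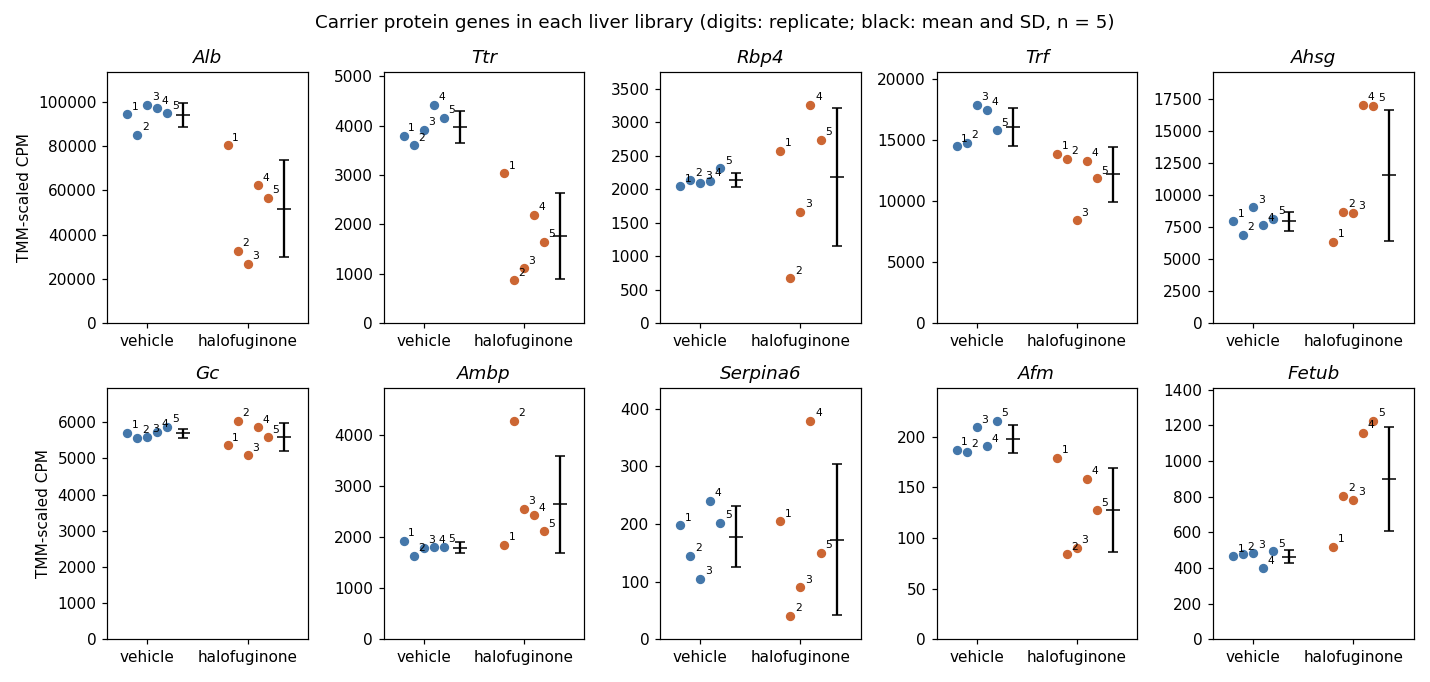
Points give the TMM-scaled CPM of each carrier gene in each liver library, numbered by replicate, and black bars give the group mean ± SD (n = 5). Alb, Ttr, Trf and Afm lie below the vehicle range in 5 of 5 treated livers and Fetub above it in 5 of 5, whereas Rbp4 and Serpina6 spread to both sides.

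Of the 10 genes, all of which passed the filter on low counts, edgeR called 3, with Ttr and Afm lower and Fetub higher. Among all genes tested 23.2% were called, 12.7% higher and 10.5% lower. Groups that did not overlap were seen for 5 of the 10, 4 lower and 1 higher, against 11.7% of all genes. Since the genes were picked on this contrast, nothing is read from these counts. The median log2 fold change of the 10 was −0.04, beside 0.02 over all genes. Without halofuginone replicate 1, 5 members were called, and without replicate 3 or replicate 5 the number was 1.

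Effects without halofuginone replicate 1 were −1.10 for Alb, −1.47 for Ttr, −0.80 for Afm and −0.47 for Trf on the log2 scale. They were 1.08 for Fetub, 0.64 for Ambp and 0.67 for Ahsg. Every one of these 7 values was farther from 0 than with the library included. That follows from leaving out the library nearest to the vehicle livers, or for Ahsg below them, so nothing is read from it. Library size alone moved the median over all genes, on the log2 scale, from 0.02 to 0.17, and the share of higher calls from 54.7% to 76.9%.

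Per length, the order of the carriers in vehicle livers was Alb at 43896 ± 3274 FPKM, Trf at 6966 ± 774 and Ahsg at 5078 ± 492 (SD, n = 5). Then came Ttr at 3183 ± 352, Gc at 3024 ± 151, Rbp4 at 2169 ± 134 and Ambp at 1352 ± 104 FPKM. Fetub at 320 ± 20, Serpina6 at 106 ± 34 and Afm at 91.6 ± 6.8 FPKM closed the order. Each gene stood above the next in 5 of 5 vehicle livers, except that Ttr stood above Gc in 3 of 5 and Serpina6 above Afm in 3 of 5, so these neighbours did not differ beyond their spread.

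The order under halofuginone was Alb at 26278 ± 9796, Ahsg at 8153 ± 3326, Trf at 5890 ± 1021 and Gc at 3294 ± 248 FPKM. Rbp4 at 2415 ± 1041, Ambp at 2237 ± 891, Ttr at 1541 ± 677, Fetub at 678 ± 206, Serpina6 at 110 ± 79 and Afm at 65.1 ± 17.3 FPKM followed. By mean, Ttr went from the fourth place to the seventh, behind Gc, Rbp4 and Ambp, though Ambp stood above it in only 4 of 5 treated livers. In halofuginone replicate 2, Ttr at 794 FPKM also stood above Rbp4 at 777 FPKM. Among the treated livers Ahsg stood above Trf in 3 of 5 and Rbp4 above Ambp in 3 of 5. The FPKM ratio of Alb to Ahsg was 8.67 ± 0.50 in vehicle livers and 2.27 to 2.73 in halofuginone replicates 2 to 5, while replicate 1, at 9.22, lay inside the vehicle range of 7.94 to 9.27. Among all genes Alb had the highest FPKM in every liver library except halofuginone replicate 3, where it was in place 3.

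Across the 10 liver libraries some carriers had parallel levels, mainly through the treated livers. The values are Pearson's r of log2 CPM, and the libraries share their treatment group and their scaling, so they are descriptions only. Alb and Afm had r = 0.98, Alb and Ttr 0.97, and Ttr and Afm 0.98. With the group means subtracted these were 0.95, 0.92 and 0.97. Ahsg and Fetub had r = 0.86, and 0.93 with group means subtracted. Rbp4 and Serpina6 had r = 0.89 both ways. Within the 5 treated livers alone, r was 0.96 for Alb and Afm, 0.99 for Ttr and Afm, 0.97 for Ahsg and Fetub and 0.94 for Rbp4 and Serpina6. Within the 5 vehicle livers these were 0.54, 0.37, 0.28 and 0.28, and Alb was closest to Ahsg, at 0.84.

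Ambp ran against Alb, Ttr and Afm over the 10 livers, with r = −0.82 to Alb, −0.88 to Ttr and −0.87 to Afm. With group means subtracted these were −0.66, −0.81 and −0.75. The opposition was present in the 5 treated livers (−0.70, −0.84 and −0.79) and not in the 5 vehicle livers, where r was 0.70, 0.36 and 0.18. Gc had r = 0.27 to Alb and 0.17 to Afm, although all 3 are relatives on chromosome 5. Ahsg had r = −0.24 to Alb, which became 0.18 with group means subtracted.

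**Figure D3:**
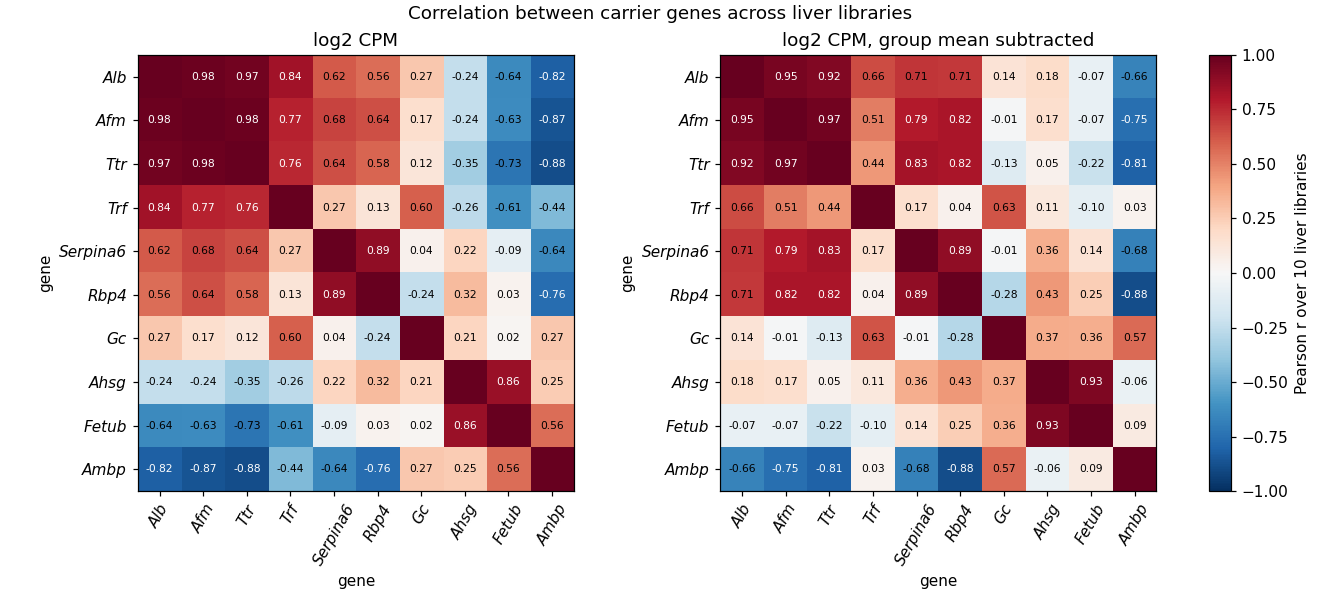
Each cell gives Pearson's r between a pair of carrier genes over the 10 liver libraries, on log2 CPM at left and with the group means subtracted at right. Alb, Afm and Ttr form a block at 0.97 to 0.98, Ahsg and Fetub a pair at 0.86, and Ambp is negative to the Alb block, patterns that within the 5 vehicle livers are weaker (Ahsg and Fetub 0.28) or of the other sign (Ambp and Alb 0.70).

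Among the 5 genes outside the group whose log2 CPM was most like that of Alb over the 10 livers, compared over the 2308 genes that averaged 50 CPM or more, were Xdh (r = 0.98), Apoa1 (0.97), Hgfac (0.97) and Ugt2a3 (0.97). With group means subtracted they were Cyp4a14 (0.96), Proc (0.96), Xdh (0.95), Serpina1a (0.95) and Serpind1 (0.95). Only Xdh, which encodes xanthine dehydrogenase, was in both sets of 5. Cyp4a14 and Serpina1a have relatives of similar sequence, between which reads can be split.

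Markers of liver cells that hold no carrier gene were read beside these levels. The summed CPM of 12 hepatocyte markers ranged from 27595 to 36662 in vehicle livers and from 11239 to 29286 in treated livers. It was lowest in halofuginone replicates 2 and 3, at 11239 and 13786, which also had the lowest Alb, Ttr and Afm. None of the 12 was at 0, and 2 were called lower, Otc (log2 fold change −1.30, edgeR adjusted p = 0.043) and Bhmt (−1.83, adjusted p = 0.0037), while Cps1 had −0.04. The summed CPM of 8 Kupffer cell and macrophage markers ranged from 348 to 545 in vehicle and from 343 to 700 in treated livers, with 0 of 8 called. The part of these differences in the levels of the carrier genes was not tested.

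White adipose tissue gave a comparison of the same drug that had no part in the choice. Trf and Rbp4 were the only carriers at a substantial level there. Trf stood at 2414, 3956 and 1757 CPM in vehicle fat and at 2959, 2358 and 3800 CPM in treated fat. Rbp4, which fat is known to secrete as an adipokine, stood at 221, 238 and 83.7 CPM in vehicle and at 125, 118 and 186 CPM in treated fat. The groups overlapped for both genes, and vehicle replicate 3 was the lowest library for each. The log2 fold changes were 0.17 (SE 0.34, edgeR adjusted p = 0.87) for Trf and −0.34 (SE 0.40, adjusted p = 0.77) for Rbp4. For Trf the sign turned to −0.07 without vehicle replicate 3.

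The other carriers were near the limit of detection in fat. Alb had 40, 31 and 13 counts in vehicle fat, or 2.40, 1.72 and 0.750 CPM. It had 81, 54 and 61 counts in treated fat, or 4.59, 2.51 and 3.21 CPM. All 3 treated values lay above the vehicle values, and the fitted log2 difference was 1.08 (SE 0.51, edgeR adjusted p = 0.41). An exact two-sided permutation test gave p = 0.1, the smallest that 3 against 3 allows. Among all genes tested in fat, 20.6% had groups that did not overlap.

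Ahsg ranged from 19 to 85 counts and Fetub from 10 to 107 counts over the 6 fat libraries. Ahsg had a fitted log2 difference of 0.39 (SE 0.54, edgeR adjusted p = 0.81), and Fetub one of 1.00 (SE 0.71, adjusted p = 0.60). Ttr had 69 counts in halofuginone replicate 3 and 0 to 6 in the other 5 libraries. Gc had 0 to 9 counts, and Ambp and Afm had 0 to 3. Serpina6 had 0 counts in all 6, which allows up to 3 counts per library, covering counting error only.

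In fat 5 of the 10 carriers (Alb, Rbp4, Trf, Ahsg and Fetub) passed the filter on low counts and 0 were called by edgeR, beside 0 of 14030 genes, which is 0%. At an unadjusted p under 0.05 there were 1881 genes in fat and 0 of the carriers, and DESeq2 called 723 genes, again with 0 carriers. Among hepatocyte markers in fat, Otc had 0 counts and Cps1 at most 1 count in a library, whereas Cyp2e1, which fat also expresses, averaged 462 CPM in vehicle and 721 CPM in treated fat.

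Other cell markers in fat moved with a group or a library. The summed CPM of 8 macrophage markers was 1428 to 2195 in vehicle and 669 to 851 in treated fat, with 0 called. Vehicle replicate 3 was lowest in Trf and Rbp4 and highest in the macrophage sum. It had the lowest sum of 5 adipocyte markers, at 3803 CPM beside 4243 to 8288 CPM in the other 5 libraries. Its sum of 5 cholangiocyte markers was the highest, at 886 CPM beside 95.2 to 282 CPM. That sum was mostly Spp1, which averaged 339 CPM in vehicle fat, and is no count of bile duct cells. Krt19, Krt7, Epcam and Sox9 each averaged 2.42 to 9.81 CPM there. The part of all these markers in the carriers' fat levels was not tested.

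**Figure D4:**
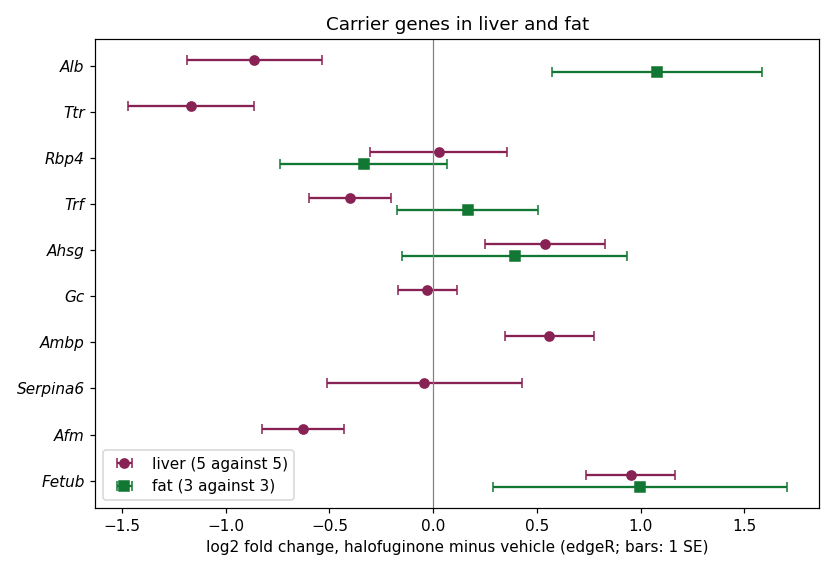
Points give the edgeR log2 fold change of halofuginone minus vehicle for each carrier gene in liver (circles) and in fat (squares), with bars of 1 SE. Alb is at −0.86 in liver and at 1.08 in fat, where its level is only 0.750 to 4.59 CPM, and the 5 carriers without a square had too few counts in fat.

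Between the vehicle groups of the tissues, all 10 carriers were called higher in liver. Of all 14853 genes tested, 4678 were called higher in liver and 6068 lower, or 72.3% in either direction. The gap was smallest for Trf, at 6966 ± 774 FPKM in liver and 1111 ± 504 in fat. Its log2 difference was 3.71 (SE 0.35, edgeR adjusted p = 9.0e-08). Rbp4 followed, at 2169 ± 134 and 195 ± 95 FPKM, with a log2 difference of 4.70 (SE 0.51, adjusted p = 5.8e-07). With library size alone the median log2 difference of all genes moved from −0.18 to −1.36, and the differences of Trf and Rbp4 were 2.51 and 3.50. Fetub was the next, with a log2 difference of 9.51 (SE 0.60, adjusted p = 9.8e-10).

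The genes that act with the carriers were taken as 9 lists of 81 genes. In liver 73 of them passed the filter and 24 were called, 11 higher and 13 lower, or 32.9% beside 23.2% of all genes. Over all genes 12.7% were called higher and 10.5% lower, and the median log2 fold change was 0.02. The lists were chosen with earlier results of these data known, so nothing is read from the difference in shares. In 6 of the 24, all 5 treated livers lay outside the vehicle range, and in 13 others replicates 2 to 5 did and replicate 1 did not. Over all genes tested in liver, 11.7% had groups that did not overlap. The place of replicate 1 was not counted over all called genes, so nothing is read from these counts. In fat 59 passed and 0 were called. Adjusted p-values below are edgeR's over all genes tested in liver.

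Among 16 other plasma carriers, of which 14 passed, 5 rose and 1 fell, with a median log2 fold change of 0.38. Hpx, which binds free heme, rose from 3768 ± 413 to 10426 ± 6625 CPM (log2 1.47, SE 0.40, adjusted p = 0.025). Serpina7, the thyroxine-binding globulin, rose from 120 ± 36 to 743 ± 414 CPM (log2 2.63, SE 0.58, adjusted p = 0.013). Igfbp1, an inhibitor of insulin-like growth factors, rose from 34.4 ± 20.6 to 308 ± 197 CPM (log2 3.17, SE 0.64, adjusted p = 0.010). For each of these 3, replicate 1 lay within or below the vehicle range and replicates 2 to 5 above it.

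Orm1 and Orm2, acute-phase carriers of basic drugs, rose by 1.99 (SE 0.60, adjusted p = 0.035) and by 3.83 (SE 1.13, adjusted p = 0.033) on the log2 scale. They are close copies of each other, so reads can be split between them. Orm2 in treated livers ranged from 22.7 to 1779 CPM, and only 2 of the 5 lay above the vehicle range. Igfals, which holds insulin-like growth factors in a plasma complex, fell from 112 ± 18 to 47.0 ± 35.4 CPM (log2 −1.25, SE 0.38, adjusted p = 0.035). Hp, Cp, Apom, Apoh, Hrg, Igfbp2, Igfbp4 and Selenop passed the filter and were not called.

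The genes that handle the carriers' cargo were read next. Of 6 genes of thyroid hormone handling, all of which passed, 2 fell. One of them, the thyroxine deiodinase Dio1, went from 129 ± 17 to 54.3 ± 38.7 CPM (log2 −1.25, SE 0.35, adjusted p = 0.029).

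Of 11 genes of retinoid handling, 9 passed, 1 rose and 3 fell. Aldh1a1, a retinaldehyde dehydrogenase, fell from 1718 ± 211 to 591 ± 289 CPM (log2 −1.54, SE 0.33, adjusted p = 0.012). Rdh10, a retinol dehydrogenase, fell by 0.78 on the log2 scale (SE 0.12, adjusted p = 0.0043), and the retinoic acid receptor gene Rarb, at only 2.28 CPM in vehicle, fell by 0.89 (SE 0.28, adjusted p = 0.044). Bco1, which cleaves beta-carotene, rose by 0.98 (SE 0.21, adjusted p = 0.011) from 4.97 CPM. Lrat, the retinol-esterifying enzyme, had −0.18 (SE 0.13, adjusted p = 0.33).

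Of 8 genes of iron uptake and export, 1 fell and 1 rose. Tfrc, the receptor through which cells take up transferrin, fell from 26.6 ± 8.7 to 12.9 ± 5.9 CPM (log2 −1.05, SE 0.30, adjusted p = 0.030). Hamp, which encodes the iron hormone hepcidin, rose from 347 ± 239 to 953 ± 416 CPM (log2 1.46, SE 0.44, adjusted p = 0.035), with 3 of 5 treated values above the vehicle range. Hamp has a near copy, Hamp2, with which reads may be shared.

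Of 5 genes of vitamin D and vitamin E handling, 3 passed and 2 fell, Ttpa, the intracellular vitamin E transfer protein (log2 −0.88, SE 0.21, adjusted p = 0.018), and the sterol hydroxylase Cyp27a1 (−0.81, SE 0.25, adjusted p = 0.039). The vitamin D hydroxylase Cyp2r1 had −0.14 (SE 0.24, adjusted p = 0.69). Of 7 genes of glucocorticoid handling only Fkbp5, a glucocorticoid-induced chaperone of the receptor, was called, from 173 ± 31 to 85.2 ± 13.8 CPM (log2 −1.02, SE 0.16, adjusted p = 0.0038). The receptor Nr3c1 had −0.21 (SE 0.11, adjusted p = 0.16).

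The inter-alpha-trypsin inhibitor heavy chains, some of which are joined to bikunin from the Ambp product, had a median log2 fold change of 0.83. Among them 3 of 5 were called higher. These were Itih3 (log2 1.12, SE 0.29, adjusted p = 0.021), Itih5 (0.83, SE 0.22, adjusted p = 0.024) and Itih2 (0.72, SE 0.19, adjusted p = 0.024). Itih1 had 0.38 (SE 0.16, adjusted p = 0.10). Of 9 genes listed as receptors or other partners of carriers, 7 passed and only Lrp2 (megalin) was called. It went from 0.480 ± 0.298 to 3.40 ± 1.70 CPM (log2 2.80, SE 0.46, adjusted p = 0.0050), with all 5 treated values above the vehicle range. Fcgrt, the receptor that recycles albumin, had −0.19 (SE 0.14, adjusted p = 0.33).

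Of 14 liver transcription factors, some of which act on carrier promoters, 3 were called and all 3 were lower. Among all genes tested in liver 23.2% were called, 10.5% lower. The median log2 fold change of the 14 was −0.23, beside 0.02 over all genes. Hnf4a fell from 895 ± 141 to 546 ± 143 CPM (log2 −0.71, SE 0.20, adjusted p = 0.027). Foxa3 fell by 0.50 (SE 0.16, adjusted p = 0.046) and Cebpb by 0.32 (SE 0.10, adjusted p = 0.043). Of 20 alternatives, 14 ended the call of Foxa3, 13 that of Cebpb and 7 that of Hnf4a.

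Leaving out single livers ended part of these calls. Of the 23 called partner genes looked at in this way (all but Igfals), 23 were still called without halofuginone replicate 1 and 10 without halofuginone replicate 3. Leaving out any of the other livers left 11 to 15 called. Igfbp1, Aldh1a1, Rdh10, Bco1 and Fkbp5 were called under each of the 20 alternatives.

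**Figure D5:**
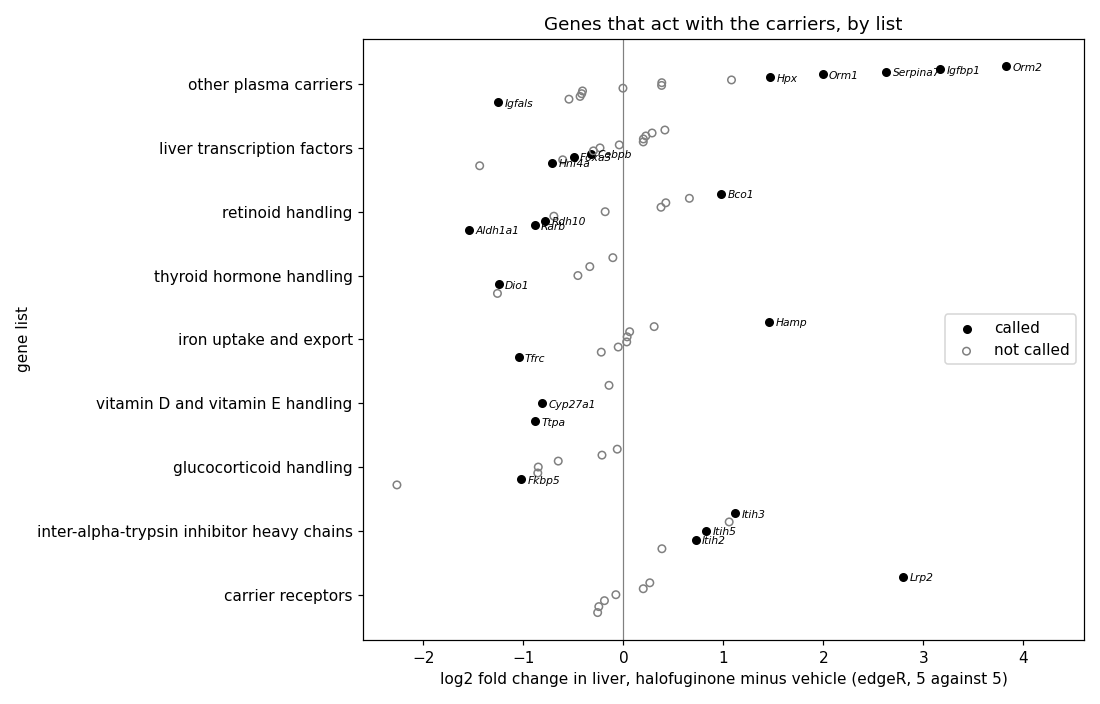
Points give the edgeR log2 fold change in liver of the partner genes reported here that passed the filter, by list, filled where the adjusted p was under 0.05. Filled at right are 5 other plasma carriers, 3 inhibitor heavy chains, Bco1, Hamp and Lrp2, and filled at left are Igfals, 3 transcription factors, Aldh1a1, Rdh10, Rarb, Dio1, Tfrc, Ttpa, Cyp27a1 and Fkbp5.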

How the data were processed

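Per the labels' protocols, mRNA of liver and fat was captured on oligo(dT) beads and sequenced. The submitters' processing notes name fastp 0.18.0, Bowtie2 2.2.8, HISAT2, StringTie 1.3.1 and RSEM and the build mm39. The authors deposited counts and FPKM (scaled for gene length and depth) per gene and library, per the file headers. The counts are whole numbers, but 1 to 31 genes per library have an FPKM above 0 with no count, so they may be rounded estimates. Counts of paralogs, overlapping genes and antisense genes are uncertain.

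The tissues were fitted separately in edgeR 4.0.16 (filterByExpr, TMM, glmQLFit, glmQLFTest, two-sided, Benjamini-Hochberg) in R 4.3.3, and the vehicle tissues were compared in 1 fit of all 16 libraries. The scripts were tested on simulated data. The threshold was an adjusted p of 0.05. A standard error is the size of the log2 difference over the square root of F. No pair of libraries in a group agreed within sampling noise (smallest chi-square per degree of freedom 29.7 in liver and 50.5 in fat). No batch is given in the labels. Liver libraries held at least 20309956 counts, and every carrier had at least 1086 counts in each.

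The members and lists were chosen with earlier results of these data known. Named genes were all members, the first gene of each list with up to 4 called genes of largest change, and the 5 genes most like Alb by Pearson's r. Igfals is outside that rule, and some genes and a motif that the rules chose are not reported here. The other marker lists read were endothelium, stellate cell, cholangiocyte, lymphocyte, erythrocyte, adipocyte and exocrine pancreas, of which 2 endothelial genes were called higher in liver and 3 lower, 2 stellate, 1 cholangiocyte, 1 erythrocyte and 1 adipocyte gene lower, and 0 in fat. Promoters are RefSeq's for GRCm38.p6, another build than that of the files, and gave the printed sequences with their positions and, with RefSeq's gene table, the order of genes. Alternatives were DESeq2 1.42.0, other scalings and filters, the replicate number as a block, limma 3.58.1 on log2(FPKM + 1) or log2(FPKM + 0.1), 1 fit of all libraries, and leaving out each replicate.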

Additional observations from a re-analysis of the deposited data

Results flagged for a closer look

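In the treated livers, the FPKM ratio of Alb to Ahsg in halofuginone replicate 1 was 9.22, far from the other 4, of which the next was 2.73. Fetub in vehicle replicate 4, at 398 CPM, stood apart from the next vehicle liver at 466 CPM. The Alb part of the carriers' counts in vehicle replicate 1, at 72.0%, stood apart from the next at 70.9%. A total of 42 groups of 5 livers were looked at and 3 held such a sample, where chance gives about 1 in 20.

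Alb lay below the vehicle range in 5 of 5 treated livers and above it in 3 of 3 treated fat libraries (log2 fold change 1.08 in fat). The difference between the tissues was not tested. The fat values rest on 13 to 81 counts per library, and leaving out single fat libraries gave 0.74 to 1.47. Otc, a hepatocyte marker, had 0 counts in all 6 fat libraries. In vehicle liver Otc averaged only 327 CPM beside 94154 CPM for Alb. At that level its 0 counts do not show where the Alb reads in fat came from, which was not tested.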

How the results depend on the processing

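Of the liver effects of the 10 carriers under 20 alternatives each, 161 kept direction and side of the threshold, 14 lost and 9 gained a call, and 16 changed sign, all 16 in Gc, Rbp4 or Serpina6. Gc was 0.13 with library size alone, 0.12 with limma on FPKM at either pseudocount, and between −0.069 and 0.010 with single livers left out. Serpina6 was 0.060 with library size alone and between −0.56 and 0.20 with single livers left out. Rbp4 was −0.00809 and −0.00820 with limma (pseudocounts 1 and 0.1) and between −0.17 and 0.25 with single livers left out. In fat, Trf lay between −0.066 (vehicle replicate 3 out) and 0.54 with single libraries left out, and was −0.00436 when halofuginone replicate 3 was. Cyp2r1 in liver was 0.020 with library size alone. The cause was not tested.

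The number of carriers called in liver was 3, beside 2850 genes in all. It was 6 with DESeq2, beside 3619 genes, and 5 with limma on log2(FPKM + 1), beside 2827 genes. In 1 fit of all 16 libraries it was 0, beside 2193 genes. With single livers left out it was 1 to 5. The number of genes called in liver was 1275 to 5312 with single livers left out, among them 1770 and 1700 after removal of vehicle replicate 4 or 5 and 1798 after removal of halofuginone replicate 4. In fat it was 723 with DESeq2, 334 in 1 fit of all libraries, 17 with limma on log2(FPKM + 1), 1 with no filter and 0 to 1 with single libraries left out. The share of higher calls in liver was 72.5% and 72.4% with limma on FPKM.

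The labels do not say that a replicate number marks a shared animal or batch, and same-numbered livers did not deviate together (correlations from −0.16 to 0.06, and from −0.57 to 0.11 in fat). With the replicate block, 1901 genes and 2 carriers were called in liver and 0 genes in fat, and Rbp4 in liver was −0.14. Of the 23 called partner genes, 12 were still called with the replicate block and 15 in 1 fit of all libraries, library size alone and no filter each ended 3 calls, and limma on FPKM ended 4. All 230 recomputed liver against fat differences of the carriers kept direction and call. Depth limits the carriers in fat other than Trf and Rbp4.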
